A study of Mus musculus with 8 samples.

Results

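Translation efficiency was ordered across genes in the libraries labelled KO, which are dendritic cells of mice that carry the Mettl3 deletion. The members were 4 of the 8 libraries of the study, namely 2 libraries of ribosome-protected fragments (RPF) and the 2 mRNA inputs that stand beside them, and the other 4 libraries are labelled WT. They were found by their label alone. Bone marrow of C57BL/6 mice aged 6 weeks was grown with GM-CSF and IL-4, CD11c-positive cells were taken with beads, and LPS at 100 ng/ml for 24 h matured them (maDC). The KO mice joined a floxed Mettl3 to Cre driven by CD11c, so that only cells with CD11c lose the gene, while their littermates labelled WT received the same culture and LPS. Cells of several littermate pairs of mice were prepared, but how they were divided over the replicates is not given in the sources used here, so the p-values measure only the spread between 2 samples, which may be technical.

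Mettl3 writes N6-methyladenosine (m6A) into mRNA as the active part of a methyltransferase complex. Ribosome profiling digests the mRNA that ribosomes do not cover and sequences what is left, so RPF count ribosomes on a coding sequence. Translation efficiency (TE) is the RPF level divided by the mRNA level of the same gene. Initiation sets most of it, and it is held down by upstream reading frames and by a weak sequence around the start codon. The mRNAs of ribosomal proteins start with a terminal oligopyrimidine tract, through which mTOR controls their translation.

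The values were RPKM, reads per kilobase scaled to the size of the library, in 1 table per replicate. TE is given as log2 of RPF + 0.5 over input + 0.5, after each library was centred on its median over the 7685 genes tested, so that 0 marks a gene that stood as far from the median in RPF as in input. Over all tested genes the median was -0.11 in replicate 1 and 0.02 in replicate 2. Genes had to be in both tables, with a mean KO input of at least 5 RPKM, and 241 genes whose replicate 2 RPF had been divided by a length of 1 base were left out. In replicate 2 whole reads could be recovered, from a total of 5276406 RPF and 8794578 input reads in KO, and the median tested gene had 141 RPF and 505 input reads. The depth of replicate 1 is unknown. Replicate 2 lists no gene at 0 in any of its columns, which takes the genes with fewest RPF out of the order.

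The labels were checked first. Mettl3 had 6.27 and 11.9 RPKM in the KO inputs of replicates 1 and 2 against 6.97 and 10.1 in the WT inputs, and 15.3 and 5.88 against 34.0 and 9.63 in RPF. The input was thus not lower in KO in replicate 2. Gene totals cannot show whether the deleted exons are missing, and the libraries are called by their label here. Of 14 dendritic cell markers 13 were in both tables, among them Cd74 (1791 and 2520 RPKM in KO input), Ccr7 (1331 and 1038) and Itgax, which encodes CD11c (20.9 and 20.7). Macrophage markers had a summed KO input of 8139 and 14205.5 RPKM over 13 of 13 genes, of which Lyz2, also found in other myeloid cells, gave 6936 and 12407, while C1qa had 9.18 and 3.99. Neutrophil markers reached 3458.1 and 6534.5 over 15 of 15, while 3 of 8 B cell markers summed to 0.8 and 1.5.

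TE spread widely in both replicates, and the order of genes was shared only in part. In replicate 1 the 5th and 95th percentiles lay at -3.01 and 2.48 on the log2 scale, and in replicate 2 at -2.15 and 1.85. Across genes Spearman's rho between the replicates was 0.378 for TE, whereas it was 0.882 for input and 0.621 for RPF. Genes are not independent replicates, and the replicate is also the table. Within a table the KO order was much closer to the WT order, with rho of 0.786 in replicate 1 and 0.850 in replicate 2. The order was better shared among abundant mRNAs, with rho of 0.445 over 1431 genes with a mean KO input of 50 RPKM or more and 0.335 over 2026 genes between 5 and 10 RPKM.

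Limma with Benjamini-Hochberg adjustment called no gene above or below the library medians (0 of 7685 in each direction, 0%; smallest adjusted p = 0.0798). At an unadjusted p under 0.05 there were 508 genes above (6.61%) and 724 below (9.42%). The order is therefore described by position: 558 genes (7.26%) were in the top 20% of the order in both replicates and 586 (7.63%) in the bottom 20% of both. Another 127 genes lay in the bottom 20% of replicate 1 and the top 20% of replicate 2, and 119 the other way round. Of all 7685 genes 2365 were above 0 in both replicates and 2537 below 0 in both, which is the background for the lists below. In the plot of TE in the 2 tables most genes form a broad cloud, and ribosomal protein genes fill its lower left.

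**Figure D1:**
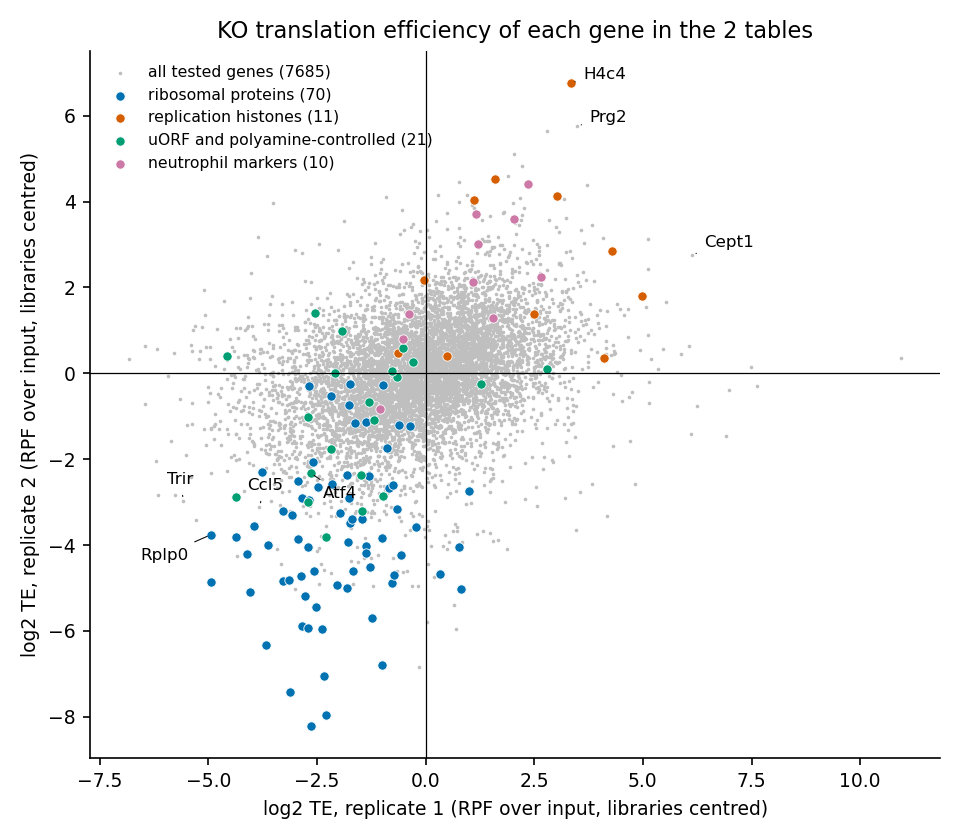
Each grey point is 1 of 7685 tested genes, with its log2 TE in the libraries labelled KO in replicate 1 (x axis) and replicate 2 (y axis), and coloured points are members of 4 gene lists. The cloud leans upward with a Spearman's rho of 0.378. On both axes 66 of 70 ribosomal protein genes lie below 0 (2537 of all 7685 genes), and no histone gene does.

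At the low end, 7 of the 12 genes with the lowest order belong to the list of cytosolic ribosomal proteins. Rplp0, a protein of the ribosomal stalk, had 868 RPKM in input and 46.6 in RPF in replicate 1, and 438 and 31.5 in replicate 2, the last on 158 reads. Its log2 TE was -4.94 and -3.76. Its stalk partners Rplp1 and Rplp2 were at -3.67 and -6.33 and at -3.95 and -3.55, and Rpl18 and Rps20 at -4.04 and -5.08 and at -4.10 and -4.21. The low end also held Pabpc4, a poly(A)-binding protein (-4.35 and -4.24, on 2 RPF reads), and Oaz1, the antizyme whose reading frame is shifted by polyamines (-4.35 and -2.88).

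The other 3 low genes have coding sequences that occur nowhere else in the genome. Ccl5, a chemokine that draws T cells and the most abundant mRNA tested by the mean of both KO inputs, had 16083 RPKM of input and 1888 of RPF in replicate 1 and 11788 and 1348 in replicate 2. Its log2 TE was -3.82 and -3.11 (mean -3.47, n = 2), with limma's moderated SE of 0.77 and adjusted p of 0.11. A moderated SE leans on a spread shared across genes and is not the spread of the 2 values alone. Ccl5 stood at percentile 2.0 of the order in replicate 1 and 1.9 in replicate 2. Trir, a ribonuclease that interacts with the telomerase RNA, was at -5.57 and -2.97, and St6galnac6, a sialyltransferase, at -5.28 and -3.42.

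**Figure D2:**
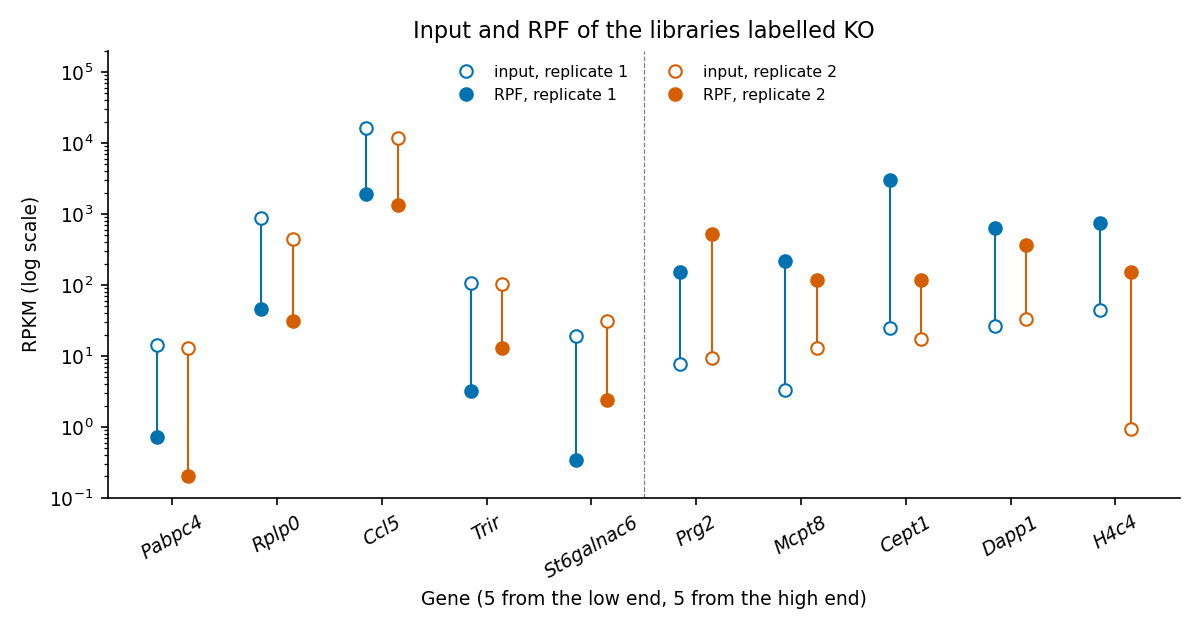
Input (open circles) and RPF (filled circles) in RPKM on a log axis for 5 genes of the low end (left of the dashed line) and 5 of the high end, in each replicate labelled KO. RPF lay below input in all 5 low genes and above it in all 5 high genes in both replicates, by amounts that differed between the replicates most for Cept1, H4c4 and Mcpt8.

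The 12 highest genes were 3 that are known from other myeloid cells, 2 histone genes and 7 of varied function. Prg2, the major basic protein of eosinophil granules, had 7.61 RPKM of input and 151 of RPF in replicate 1 and 9.36 and 527 in replicate 2. Its log2 TE was 3.49 and 5.76 (mean 4.63, n = 2), with limma's moderated SE of 0.79 and adjusted p of 0.080. Mcpt8, a basophil protease, was at 5.11 and 3.14, and Stfa2, an inhibitor of cysteine proteases in neutrophils, at 3.71 and 4.40. Both replicates had their RPF many times above their input. Cept1, which makes phosphatidylcholine and phosphatidylethanolamine, had the highest value of the 12 in replicate 1 (6.13), and a lower one in replicate 2 (2.76). Dapp1, an adaptor of PI3-kinase signalling, was at 3.84 and 3.44, on 1598 RPF and 898 input reads in replicate 2. Lrg1 (3.57 and 3.33), Golph3l (3.65 and 3.03), the smooth muscle actin gene Acta2 (4.08 and 3.14), Smu1 (3.31 and 2.85) and Cyria (3.37 and 2.69) were close to each other, and the histone genes H4c4 and H4c8 made up the rest.

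Markers of neutrophils lay high as a list. Of 10 tested members 7 were above 0 in both replicates (2365 of 7685 over all genes) and 5 in the top 20% of both (7.26% over all genes). The medians were 1.19 and 2.19. Camp, the granule peptide cathelicidin, had 28.8 RPKM of input and 249 of RPF in replicate 1 and 36.3 and 772 in replicate 2. S100a8 and S100a9, the subunits of calprotectin, were at 2.65 and 2.25 and at 2.04 and 3.60. Mmp9, a matrix protease, was the member below 0 in both, at -1.06 and -0.83. The summed input of the 15 neutrophil markers was 3458.1 and 6534.5 RPKM in KO and 5541.6 and 6131.6 in WT, that of 9 of 10 mast cell and basophil markers 19.8 and 42.4 in KO and 24.3 and 70.4 in WT, with Tpsb2 not used here, and the part of such cells in the order was not tested. In bulk samples fewer cells of a type and less RNA per cell cannot be told apart.

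Replication histones had medians of 2.50 and 2.18 over 11 tested of 50, the highest sum of both among lists with 5 or more tested genes. In the top 20% of both replicates were 6 members (7.26% over all genes). Their mRNAs end in a stem loop in place of a poly(A) tail, and the input was selected by poly(A). H4c4 had 43.8 RPKM of input in replicate 1 and 0.927 in replicate 2, against 748 and 153 of RPF, so that its log2 TE was 3.35 and 6.76. In H4c8 replicate 2 rests on 14 RPF and 3 input reads, and the ratio of 11 has a 95% counting interval from 3.06 to 59.4 (exact Clopper-Pearson; such intervals cover counting error only). No member was below 0 in both replicates, against 2537 of 7685 over all genes. Histone genes also share sequence, with over 50% of coding 28-mers found elsewhere for 10 of the 11. The part of the poly(A) selection and of the shared sequence in their TE was not tested.

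**Figure D3:**
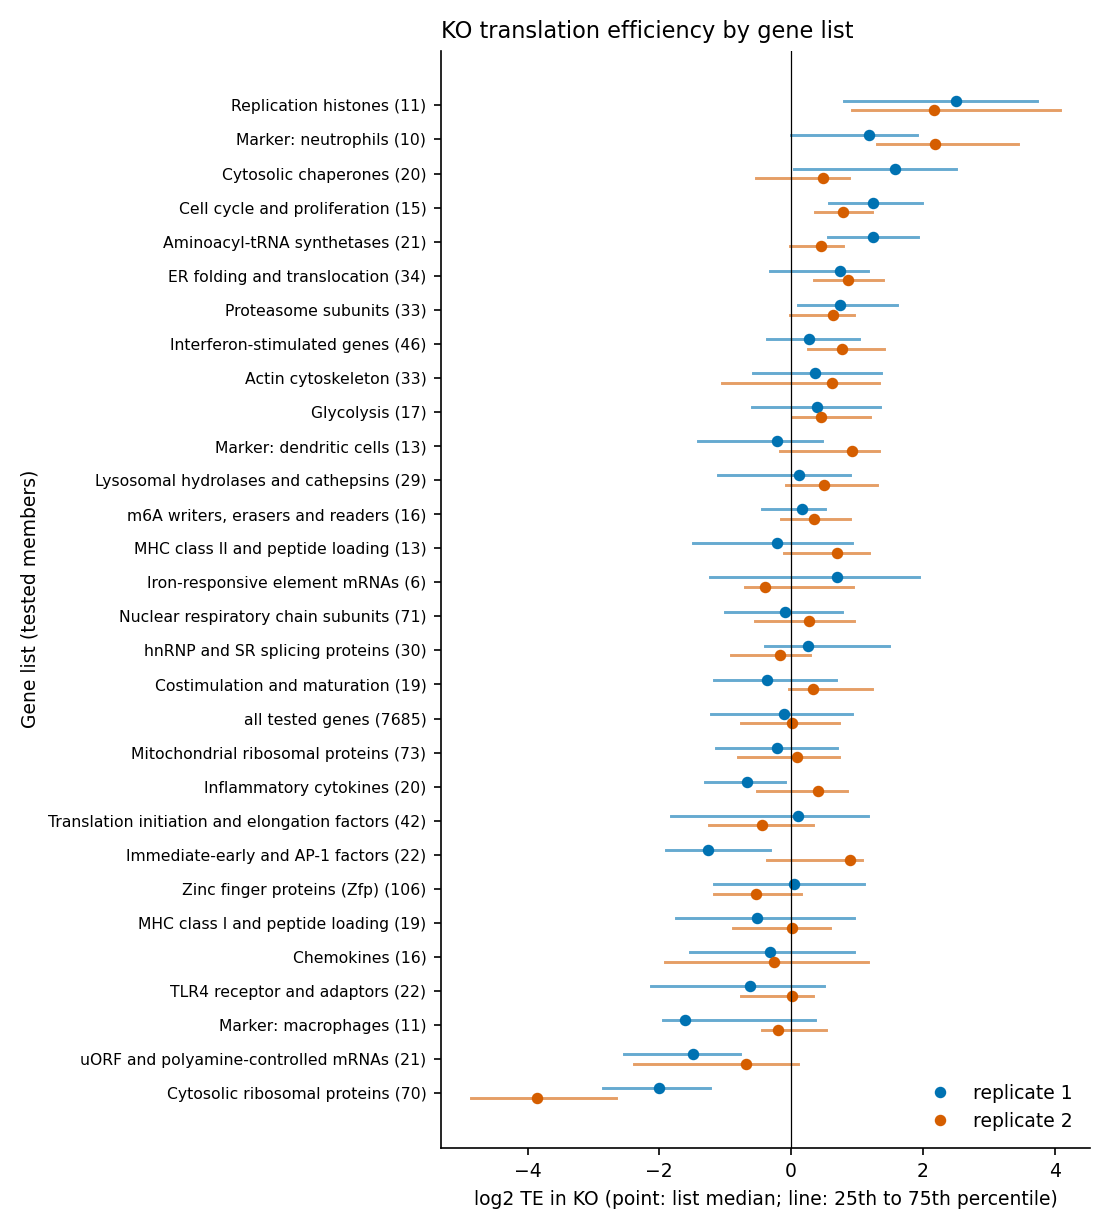
Median (point) and 25th to 75th percentile (line) of log2 TE in KO for each gene list with 5 or more tested members, in replicate 1 (blue) and replicate 2 (orange), ordered by the sum of the medians. Ribosomal proteins lie lowest at -2.01 and -3.85 and replication histones highest by that sum at 2.50 and 2.18, while immediate-early factors lie on opposite sides of 0.

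Ribosomal proteins were the lowest list. Among 70 tested genes 66 were below 0 in both replicates and none above 0 in both, against 2537 and 2365 of 7685 over all genes. In the bottom 20% of both were 42 (7.63% over all genes), and 54 had an unadjusted p under 0.05 below 0 (9.42% over all genes). Their medians were -2.01 and -3.85, and -1.85 and -2.92 in WT. In replicate 1 their input ran from 15.6 to 2215 RPKM with a median of 678, and in replicate 2 from 0.613 to 985 with a median of 233.7. RPF had medians of 268.3 and 11.89 RPKM, and 19 of the 70 genes had fewer than 10 RPF reads in replicate 2. The exceptions in replicate 1, which were above 0 there, were Rps15a (1.01), Rpl5 (0.81), Rps6 (0.78) and Rpl10 (0.33), and all of these were below -2.7 in replicate 2.

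Most of these genes have near copies in the genome, and reads that fit several places are counted in ways the sources used here do not give. Over 50% of the coding 28-mers, which are as long as a footprint, also occur elsewhere in the genome for 66 of the 70. Among those with less, Rpl8 (12.2% elsewhere) was at -1.62 and -1.17, Rps3 (22.9%) at -1.73 and -0.25, and Rpl4 (43.1%) at -1.31 and -2.40. The least repeated member, with 6.02% elsewhere, was at -2.18 and -0.53. All of these were below 0 in both replicates, and in replicate 2 they were above the list's median. Over all genes the 611 with more than 50% elsewhere had a median of -0.21 in replicate 1 and -1.34 in replicate 2, and 109 of them (17.8%) were in the bottom 20% of both. For the 4682 genes with none the medians were -0.14 and 0.15, and 307 (6.56%) were in the bottom 20% of both.

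**Figure D4:**
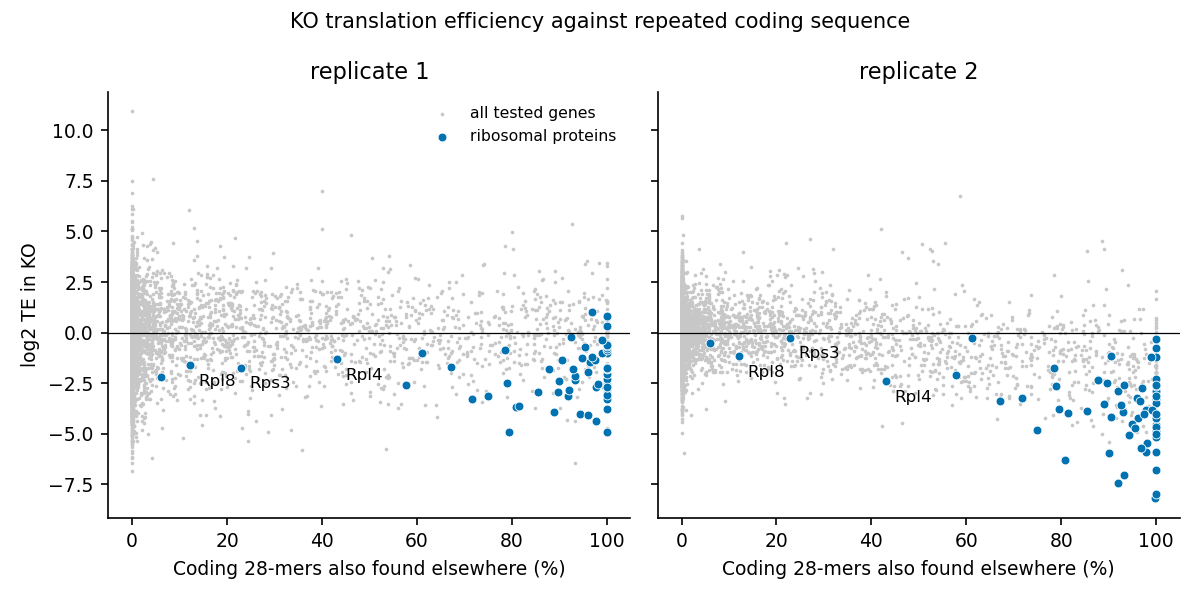
Log2 TE in KO (y axis) against the percentage of a gene's coding 28-mers that also occur elsewhere in the genome (x axis), in replicate 1 (left) and replicate 2 (right), for all tested genes (grey) and ribosomal proteins (blue). In replicate 2 genes near 100% reach far lower than in replicate 1, and the named Rpl8 and Rps3, with less repeated sequence, lie at -1.17 and -0.25 there.

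When genes with over 10% of repeated 28-mers, or with none computed, were left out, a choice made after seeing the data, limma called 84 of 6313 genes above (1.33%) and 121 below (1.92%) at an adjusted p under 0.05. The prior degrees of freedom that limma estimated were 60.8 in that fit against 11, so that its p-values lean more on a spread shared by all genes. The 3 low genes without copies passed, with adjusted p of 0.0076 for Ccl5, 0.00056 for St6galnac6 and 0.00049 for Trir. Of the 12 highest genes the 9 with few repeats passed, from 0.00032 for Prg2 to 0.017 for Cyria. Both sets had been picked as the ends of the order on these same values, so that their passing adds no support. Of these calls 1 above and 2 below lay on opposite sides of 0 in the 2 replicates. Only 1 of the 70 ribosomal protein genes was in that fit, and it was not called. Limits of 1% and 50% gave 114 above and 166 below, and 127 and 197. In these fits the prior degrees of freedom were infinite, so that a gene's own spread between the replicates did not enter its p-value.

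First bases of the transcripts were read from RefSeq on GRCm38.p6, because the pyrimidine tract is the mark of the lowest list. RefSeq transcripts started with C and then 4 of C or T (in capitals below; only the transcribed strand was read) for 184 of 7670 genes (2.40%) and for 13 of the 70 ribosomal protein genes, so that most annotated starts do not show the tract. 4 examples follow.
Rps10 (chr17:27635230-27635244, minus strand): CTTCCtttccagcct
Rplp2 (chr7:141447651-141447665, plus strand): CTTTCgccgccggac
Rpl28 (chr7:4792965-4792979, plus strand): CTCTTtccgtctccg
Rps6 (chr4:86857353-86857367, minus strand): CTCTTtttcgtgacg
These 4 genes lay apart within the list, at -2.15 and -2.57 for Rps10, -3.95 and -3.55 for Rplp2, -3.29 and -4.85 for Rpl28, and 0.78 and -4.04 for Rps6. Ribosomal protein genes with the tract had medians of -2.39 and -3.86 and those without -1.81 and -3.84. Outside the list, 171 genes with the tract had medians of -0.05 and -0.02, close to those of all genes.

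Genes known for upstream reading frames or for polyamine control lay below the typical gene, with medians of -1.49 and -0.68 over 21 tested genes. The 14 members with at most 10% of repeated 28-mers had medians of -1.40 and -0.17. Of the 21 genes 12 were below 0 in both replicates and 1 above 0 in both, against 2537 and 2365 of 7685 over all genes. In the bottom 20% of both were 6 (7.63% over all genes), and 8 had an unadjusted p under 0.05 below 0 (9.42% over all genes). Atf4, the transcription factor of the integrated stress response, had 97.7 RPKM of input and 25.7 of RPF in replicate 1 and 107 and 20.8 in replicate 2, a log2 TE of -2.64 and -2.32. Ddit3, which Atf4 induces, was at -2.29 and -3.82, and Ppp1r15a, which ends the stress response by directing dephosphorylation of eIF2α, at -2.70 and -2.99. In the fit without repeated genes 2 of the list's 14 members were called below, against 1.92% of all genes in it. These were Atf4 and Ddit3, with limma's adjusted p of 0.041 and 0.015. That fit was chosen after seeing the data, and the fit over all 7685 genes called neither. Both were named with their values in view, so that their passing adds no support. Cebpb (-4.57 and 0.41) and Jun (-1.91 and 0.97) lay on opposite sides of 0 in the 2 replicates. An upstream ATG stood in the RefSeq leader of 13 of the 21 genes (61.9%, against 44.1% of all genes). Atf4, Ddit3 and Ppp1r15a have 3, 2 and 3 of them, Azin1, the antizyme inhibitor, has 3 and was at 1.28 and -0.26, and Oaz1 has none.

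Upstream ATGs went with a lower TE across all genes. The median was 0.01 and 0.16 for 4286 genes without an ATG in the 5′ leader, -0.20 and -0.03 for 1685 genes with 1, -0.26 and -0.29 for 722 with 2, and -0.37 and -0.27 for 977 with 3 or more. These steps are small beside the spread within each group. In leaders of 187 to 295 bases, genes with no upstream ATG had medians of 0.12 and 0.31 and those with at least 1 had -0.22 and -0.11, and 4 of 5 equal groups by leader length showed the same order in both replicates. In the shortest 20% of leaders, up to 69 bases, replicate 1 did not show it, with -0.12 and -0.06. Across 7670 genes rho with the number of upstream ATGs was -0.081 and -0.141. RPF of replicate 2 stand on the coding length and inputs on the exon length, and TE was higher in replicate 2 for genes with much sequence outside the coding part, with medians of -0.13 in the bottom 20% of genes by that share and 0.29 in the top 20%. In replicate 1 these were -0.03 and -0.13.

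The base 3 before the start codon went with TE in both replicates. Genes with A there had medians of 0.03 and 0.10 (3661 genes), genes with G -0.23 and -0.03 (3074), with T -0.25 and -0.05 (337), and with C -0.40 and -0.20 (552). A or G at this place is the stronger context for the scanning ribosome, but here the medians with G lay close to those with T. These steps are small beside the spread within each group. With A the 25th to 75th percentile ran from -1.04 to 1.06 in replicate 1. A G directly after the start codon made little difference, since genes with A or G at -3 had medians of -0.09 and 0.04 with it and -0.07 and 0.03 without it. The start contexts of 8 genes from the ends of the order are shown on GRCm38.p6, with the base at -3, the start codon and the base at +4 in capitals, because they span both ends and both kinds of base.
Prg2 (high, chr2:84981332-84981341, plus strand): gccAagATGA
Mcpt8 (high, chr14:56085184-56085193, minus strand): aagAggATGT
Dapp1 (high, chr3:137981416-137981425, minus strand): gaaCttATGG
Golph3l (high, chr3:95588961-95588970, plus strand): aagCtgATGT
Ccl5 (low, chr11:83530458-83530467, minus strand): ggtAccATGA
Trir (low, chr8:85026893-85026902, plus strand): cacAaaATGG
Oaz1 (low, chr10:80826754-80826763, plus strand): ggcCggATGG
St6galnac6 (low, chr2:32608065-32608074, plus strand): ggtCacATGG
Single genes did not follow the base: 3 of the 12 highest genes and 2 of the 12 lowest had C or T at -3 (11.6% of all genes). An upstream ATG was present in 1 of the 12 highest and in 5 of the 12 lowest, against 44.1% of all genes, which the low end does not exceed.

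**Figure D5:**
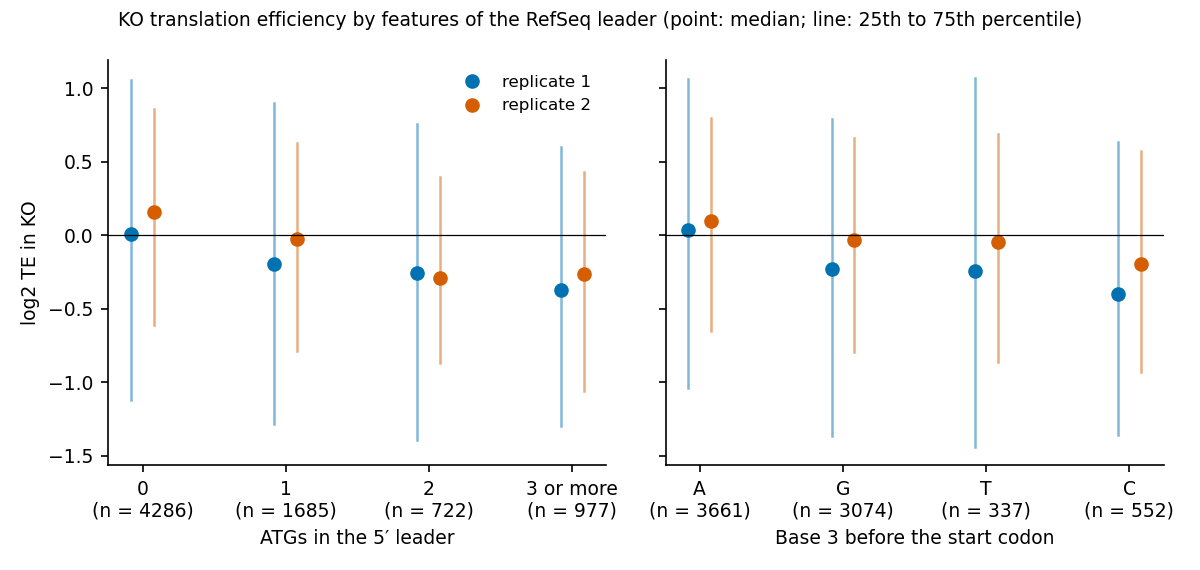
Median (point) and 25th to 75th percentile (line) of log2 TE in KO by the number of ATGs in the RefSeq 5′ leader (left) and by the base 3 before the start codon (right), in replicate 1 (blue) and replicate 2 (orange). Medians fall from 0.01 and 0.16 without an upstream ATG to -0.37 and -0.27 with 3 or more, and lie highest with A and lowest with C.

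Proteins of folding, tRNA charging and degradation lay above the typical gene in both replicates. Proteasome subunits had medians of 0.75 and 0.64, with 21 of 33 above 0 in both and 4 below 0 in both. Over all 7685 genes 2365 were above 0 in both and 2537 below 0 in both. ER folding and translocation genes had 0.74 and 0.87, with 19 of 34 above 0 in both, among them the ER chaperone gene Hspa5 (2.63 and 1.4) and Manf (1.84 and 2.61). Aminoacyl-tRNA synthetases had 1.25 and 0.46, with 14 of 21 above 0 in both, and cytosolic chaperones 1.58 and 0.48. Eprs, the synthetase for glutamate and proline, reached 5.88 in replicate 1 and 0.45 in replicate 2, and Hsp90aa1, a cytosolic chaperone, 5.35 and 0.10. Cell cycle genes had 1.24 and 0.79, with 12 of 15 above 0 in both, among them Top2a (4.17 and 1.45). At an unadjusted p under 0.05 the numbers above 0 in these 5 lists, in the same order, were 4, 4, 3, 4 and 6, against 6.61% over all genes. In the fit without repeated genes limma called Eprs (adjusted p = 0.022) and Top2a (0.025) above and Ssr4, a subunit at the ER translocon, below (0.022), although Ssr4 was at -6.82 and 0.34. These were 1 of 20 synthetases, 1 of 8 cell cycle genes and 1 of 29 ER genes in that fit. No proteasome or cytosolic chaperone gene was called in it. Over all genes in it 1.33% were called above and 1.92% below. All of these genes were picked on these same values, so that their passing adds no support.

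Translation factors were divided. Pabpc1, the main poly(A)-binding protein (-2.65 and -3.10), Eef1a1, which brings aminoacyl-tRNA to the ribosome (-1.77 and -3.40), and Eef1g (-1.67 and -4.91) lay low, like ribosomal proteins. Etf1, the release factor (3.67 and 1.25), and Gspt1, its partner (2.44 and 1.31), lay high. Over 50% of the coding 28-mers of Pabpc1, Eef1a1 and Eef1g occur elsewhere. The list's medians were 0.10 and -0.44 over 42 genes, and 0.62 and 0.21 over the 19 with at most 10% of repeated 28-mers. Ftl1, the ferritin light chain, whose mRNA is blocked by iron regulatory proteins, had 9162 RPKM of input and 1907 of RPF in replicate 1 and 9187 and 279 in replicate 2, a log2 TE of -2.998 and -5.02. Tfrc, the transferrin receptor, was at 2.66 and 2.09. Ftl1 has 88.7% of its coding 28-mers elsewhere and Tfrc none, and the other tested members of the iron list lay between these.

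Genes of LPS sensing and of dendritic cell function were mostly in the middle or differed between the replicates. Of 22 tested genes of the TLR4 receptor and its adaptors 11 were below 0 in both replicates and 6 above 0 in both, and the medians were -0.63 and 0.01. Over all 7685 genes 2537 were below 0 in both and 2365 above 0 in both. The receptor gene Tlr4 was near 0 (-0.08 and 0.27), and Cd14, which hands LPS to it, was at 1.00 and 0.36. Irak1, a kinase of the pathway, was at -1.24 and -3.35. Tirap, the adaptor at the receptor, was at -0.88 and -2.06, where replicate 2 rests on 4 RPF reads and RPF over input of 0.172 has an interval from 0.0464 to 0.446. Myd88 (-3.01 and 0.08), Rela (-4.41 and 0.52) and Nfkbia (-4.33 and 0.38) were low in replicate 1 alone.

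Among cytokines Il6 had 41.0 RPKM of input and 2.39 of RPF in replicate 1 and 80.3 and 32.0 in replicate 2, a log2 TE of -4.58 and -1.29 (limma's adjusted p = 0.16, and 0.020 in the fit without repeated genes). Il15 (-2.05 and -1.95) and Il12a (-1.23 and -2.68) were also below 0 in both replicates, while Il12b was at 1.06 and 0.59. The list of 20 had medians of -0.66 and 0.40. Chemokines had -0.31 and -0.26, and apart from Ccl5 they were scattered, with Cxcl10 at -1.87 and 3.54. Interferon-stimulated genes had 0.28 and 0.77, with 25 of 46 above 0 in both replicates (2365 of 7685 over all genes). Irf7, the transcription factor that amplifies interferon, stood at the other end of that list at -3.55 and -2.96, with no repeated 28-mer. Limma's adjusted p for Irf7 was 0.11, and 0.0091 in the fit without repeated genes. Gbp5 (1.76 and 1.81) was high in both replicates. In the fit without repeated genes Il6 and Irf7 were each the only call below in their list, of 20 and 31 members. Over all genes in it 1.92% were called below. Both stand at the low ends of their lists on these same values, so that their passing adds no support.

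Antigen presentation genes were scattered in both classes. Of the class II list, Cd74, the invariant chain (1.86 and 1.60), and H2-Eb2 (2.20 and 1.70) were high in both replicates, whereas H2-Eb1 (-2.39 and 0.94) and H2-DMa (-3.59 and 0.70) were low in replicate 1 alone. Medians were -0.22 and 0.70 over 13 genes, and -0.52 and 0.01 over 19 genes of class I. H2-D1, a class I heavy chain with 42.2% of repeated 28-mers, was at -0.66 and -4.61. Costimulatory Cd80 was at 0.47 and 0.52 and Cd86 at 1.21 and 0.33, and Pdcd1lg2, the PD-1 ligand, at 2.32 and 2.60. Socs1, which restrains cytokine signalling, was at -2.76 and -1.19. Cd40 was left out, since its replicate 2 RPF is divided by a length of 1 base and reads 118262 RPKM against 155 in replicate 1. Mettl3 itself was at 0.49 and -0.94, and the m6A reader Ythdf1 at -0.92 and 0.02. Itgam, on the macrophage list here, encodes CD11b, which the study takes as a marker of dendritic cells grown from marrow. The study's negative control for ribosome profiling was this gene, and it was at 1.39 and 0.65.

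The most abundant mRNAs besides Ccl5 and Ftl1 were spread over the upper part of the order in replicate 2. The thymosin gene Tmsb4x was at 0.20 and 1.01, Actb, the cytoplasmic actin, at 0.46 and 2.46, and Lyz2, lysozyme, at 1.65 and 0.06. B2m, the light chain of class I, was at -0.83 and 1.65, Cst3 at -0.23 and 0.97, and Psap at 1.2 and 0.43. Saa3 (-1.25 and 0.57) and Ccl22 (-1.18 and 0.93) also changed sides of 0 between the replicates. Actb stood at percentile 64.5 of replicate 1 and 98.0 of replicate 2, and B2m at 33.2 and 93.2.

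Some genes stood at opposite ends. Zfand5, a zinc finger protein, had 2.24 RPKM of RPF in replicate 1 and 163 in replicate 2 on inputs of 23.5 and 17.7, so that its log2 TE was -3.87 and 3.18. Cpne3 (-3.50 and 3.96), Elavl1 (-3.64 and 2.74) and Smim14 (-4.02 and 2.33) were alike, and WT had the same sides for Cpne3, Elavl1 and Smim14. In the other direction Pgam2 had 128 RPKM of RPF in replicate 1 and 0.25 in replicate 2, the latter from 1 read, and RPF over input of 0.0349 has an interval from 0.000869 to 0.202. Ptges3 (3.46 and -3.66), Uxs1 (4.81 and -2.57) and Dnaja1 (3.55 and -2.78) were also high in replicate 1 and low in replicate 2. Ptges3 has all its coding 28-mers elsewhere and Dnaja1 95.8%, while Elavl1, Smim14 and Pgam2 have almost none.
Immediate-early factors were a list on opposite sides, at -1.25 and 0.89 over 22 genes.

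Against WT no gene was called. Limma on all 8 libraries called 0 of 7685 genes (0%) at an adjusted p under 0.05, with 189 above and 180 below at an unadjusted p under 0.05 and a smallest adjusted p of 0.996. The list medians in WT were 2.45 and 2.12 for replication histones, -1.85 and -0.22 for the list known for upstream frames or polyamine control, and 0.06 and 1.65 for interferon-stimulated genes, beside 2.50 and 2.18, -1.49 and -0.68, and 0.28 and 0.77 in KO. Neutrophil markers had 0.22 and 1.34 in WT against 1.19 and 2.19 in KO, and cell cycle genes 0.17 and 0.43 against 1.24 and 0.79, and these differences between lists were not tested. For Il6 WT was at -1.27 and 0.61, above KO in both replicates. The KO minus WT difference of Il6 was -2.61, with limma's moderated SE of 0.56 and adjusted p of 0.996. Values near the ends of the KO order are thus not shown to be particular to KO.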

How the data were processed

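The authors prepared monosome footprints after cycloheximide and MNase, and poly(A)-selected, fragmented input. Cuffnorm, TopHat2 2.0.14 and bcl2fastq, with the build mm10, are credited without roles in the submitters' processing notes, and how reads of these libraries were counted is not given in the sources used here. The deposited tables hold RPKM, a sheet per replicate, and columns of the authors' own log2 TE, 4 in all, which were not used. Replicate 2 columns carry the names of the replicate 1 samples and were matched by group. Rows that a spreadsheet had turned into dates (27 and 19) were left out, symbols were updated through RefSeq, and 11743 genes were in both tables.

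Whole reads of replicate 2 were recovered from the deposited RPKM (98.7% of RPF values were whole within 0.01 reads on a RefSeq coding length). TE was tested with limma 3.58.1 in R 4.3.3 (lmFit, eBayes with trend, two-sided, Benjamini-Hochberg) on log2(RPKM + 0.5), RPF minus input of the same replicate, with 1 residual degree of freedom. The added 0.5 understates the change of low genes. RPKM are not counts, so no count test was run. The fit was tested on simulated data with known shifts. Their spread was set in advance and not taken from these libraries, so the test does not tell how many true shifts would be called here. RPF and input of a replicate share a table, and their deviations correlated at 0.25 across genes. The share of each coding sequence's 28-mers found elsewhere was computed on GRCm38.p6, from which mm10 is made, 1 RefSeq transcript a gene.

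The rule for named genes took the 12 highest and 12 lowest genes by the worse of 2 percentiles, the 10 most abundant, the 2 highest and 2 lowest of each list, 4 with opposite order in each direction, and genes the study follows; further list members were named with their values in view. Some genes that the rule took are not reported here. Members and lists were chosen with earlier results of these data known. Alternatives covered pseudocounts, filters, centring, the replicate block, the spread, genes of length 1 and left-out replicates. Python 3.11.15 served for the rest.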

Additional observations from a re-analysis of the deposited data

How the results depend on the processing

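The count of genes called above the medians (0 in the report) was 8 with a pseudocount of 0.1, 4 with 1, 1 with an input minimum of 1 RPKM, 42 without a minimum, 94 as deposited without centring and 26 after quantile normalization. The count below (0) was 18, 10, 1, 40, 63 and 55. Leaving out genes with over 10%, 1% or 50% of repeated 28-mers, chosen after seeing the data, gave 84, 114 and 127 above and 121, 166 and 197 below. Limma's prior degrees of freedom were 60.8 at 10%. They were infinite at 1%, at 50% and without centring, there also for KO minus WT, so that a gene's own spread did not enter. Both counts stayed at 0 with an input minimum of 20 RPKM, without trend, with the spread of WT, with length 1 genes kept, and without either KO replicate (0 to 0). The fit without the replicate block, RPF against input unpaired, also called 0 and 0. KO minus WT calls (0) came to 27 as deposited, and from 0 to 1 when a lysate was left out, the 1 without WT replicate 2; without the replicate block they were 0, and 0 without repeated genes. Spearman's rho of TE between the replicates was 0.378 in the report and 0.345 to 0.426 in the alternatives. Mean log2 TE changed sign as deposited for Ccl22 (0.23), Mettl3 (0.13) and Saa3 (0.02), and after quantile normalization for B2m (-0.29), Cst3 (-0.40), Lyz2 (0.0), Mettl3 (0.15) and Psap (-0.09). Over the fits that leave out a KO replicate, values that changed sign ran from -1.18 to 0.93 for Ccl22, -1.25 to 0.57 for Saa3, -0.92 to 0.02 for Ythdf1, -0.83 to 1.65 for B2m, -0.23 to 0.97 for Cst3 and -0.94 to 0.49 for Mettl3. The cause of these differences was not tested. Depth limits replicate 2, where 255 tested genes had under 10 RPF reads, and is unknown in replicate 1. Genes on a length of 1 base, 171 of them past the input minimum, had a median TE of 9.84 in replicate 2 and -0.35 in replicate 1.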

Other observations

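Lists not described in the report lay near the typical gene or differed between replicates. Mitochondrial ribosomal proteins, unlike those of the cytosol, had medians of -0.21 and 0.09 over 73 genes, with 21 below 0 in both replicates and 23 above 0 in both. Over all 7685 genes these numbers were 2537 and 2365. Mrps14 was high (2.56 and 3.01) and Mrps12 low (-3.44 and -1.87). Nuclear respiratory chain subunits had -0.09 and 0.27 over 71 genes, from Ndufs5 (-2.03 and -1.94) to Ndufs4 (3.50 and 2.30). Zinc finger proteins had 0.04 and -0.53 over 106 of 268 genes, with 43 below 0 in both and 22 above 0 in both. In the bottom 20% of both were 11, against 7.63% of all genes, and in the top 20% of both 1, against 7.26%.

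Actin regulators had 0.36 and 0.62 over 33 genes, where Wdr1 (2.45 and 1.83), Gsn (2.53 and 1.53) and the heavy chain gene Myh9 (3.69 and 1.16) were high and Tmsb10 (-1.57 and -4.05, all coding 28-mers also elsewhere) was low. Glycolysis genes had 0.40 and 0.45 over 17, with Pgk1 at -4.74 and -1.29 (all coding 28-mers also elsewhere) and Hk2 at 1.72 and 1.53. Lysosomal hydrolases had 0.13 and 0.51 over 29, with the protease gene Ctsl at 2.51 and 1.31. Splicing proteins had 0.26 and -0.17 over 30, with Hnrnpf (-2.45 and -4.90, 98.0% repeated) and Hnrnpa0 (-4.93 and -1.30, 0.22% repeated) both low. Macrophage markers had -1.62 and -0.20 over 11, with the complement gene C1qc at -4.07 and -0.90.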
